A study of Mus musculus with 2 samples.

Results

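Poly(ADP-ribose) polymerase (PARP) family genes and the ubiquitin ligase gene *Dtx3l* were compared between control and *Drp1*LiKO primary mouse hepatocytes. The genes were *Parp1*, *Parp2*, *Parp3*, *Parp8*, *Parp9*, *Parp10*, *Parp11*, *Parp12*, *Parp14* and *Dtx3l*, chosen by the gene name given to each probe in the array files. They were 10 of 37071 gene names on the array and held 23 of its 56600 probes.

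PARP family enzymes transfer ADP-ribose from NAD+ to proteins. *Parp1* and *Parp2* build poly(ADP-ribose) chains at broken DNA, where the chains recruit repair proteins, and most other members add single ADP-ribose units. Several of the latter are known as genes that interferon turns on, and their products act in antiviral defense and in ADP-ribose signaling of innate immunity. The product of *Dtx3l* binds that of *Parp9*, and the complex joins ubiquitin ligase activity to ADP-ribosylation.

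Control cells carried the label "wild type control", and per the methods of the study the control animals were *Drp1* flox/flox littermates without Cre. *Drp1*LiKO cells came from *Drp1* flox/flox mice with a Cre transgene under the albumin promoter, which acts in hepatocytes. *Drp1* is a gene needed for mitochondrial fission, and whether other cells of the liver kept it was not measured here. Both groups carried the strain label C57BL/6, had no treatment named in the labels and were harvested 24 h after seeding on collagen. The age, sex and number of the mice behind each array are not given in the sources used here. Each genotype was measured on 1 one-color Agilent array, and both arrays lay on the same slide. There was thus no replicate and no test, and what follows compares a pair of arrays. Precision is limited by how few arrays there are.

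Signals are the background-corrected intensity of a probe. Ratios were taken after each array was divided by its 75th percentile, 313 on the control array and 356 on the *Drp1*LiKO array, so a ratio is smaller than that of the printed signals by 0.18 on the log2 scale. All log2 ratios are *Drp1*LiKO minus control. The error given after a ratio joins, as the root of their summed squares, the SDs expected on both arrays between spots of a probe at that signal. It does not hold the variation between cultures or animals. Each gene is given by its brightest probe unless another is named. The study's threshold, a Z score of 2, taken here over the 30275 probes that either array showed well above background, corresponded to a log2 ratio of 1.30, or 2.46-fold, for higher and -1.31 for lower signal. The deleted gene, listed as *Dnm1l*, had a signal of 2602 on the control array and 1217 on the *Drp1*LiKO array, a log2 ratio of -1.28 with a Z score of -1.95, just short of that threshold. A dim probe of *Dnm1l* had signals of 22.8 and 20.9, a log2 ratio of -0.31 ± 0.366, which is within its noise. Of 12 hepatocyte marker genes, 11 were detected, and the brightest were *Serpina1a* (338486 on the control array and 339334 on the *Drp1*LiKO array) and *Alb* (219613 and 266703).

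All 10 genes were detected by at least 1 probe. By the brightest probe, 8 of them were brighter on the *Drp1*LiKO array, against 44.5% of the 20165 genes detected, and 2 were dimmer. None passed the Z score threshold in either direction, which 3.50% of detected genes passed for higher and 2.81% for lower signal. A change of at least 1.5-fold upward was measured for *Parp9*, *Parp10* and *Parp12*, 3 of 10 genes, against 10.3% of detected genes. The median log2 ratio of the 10 genes was 0.40 (1.32-fold), and that of all detected genes was -0.05, with quartiles of -0.27 and 0.21. The order of the ratios ran from *Parp12* (0.99) through *Parp9*, *Parp10*, *Parp14*, *Parp3*, *Parp11*, *Dtx3l* and *Parp8* to *Parp2* and *Parp1* (both -0.29). Of all detected genes, 71.8% had a ratio between these ends. *Parp3* (0.41), *Parp11* (0.40) and *Dtx3l* (0.37) differed by less than the spot noise of each, and so did *Parp1* and *Parp2*.

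**Figure D1:**
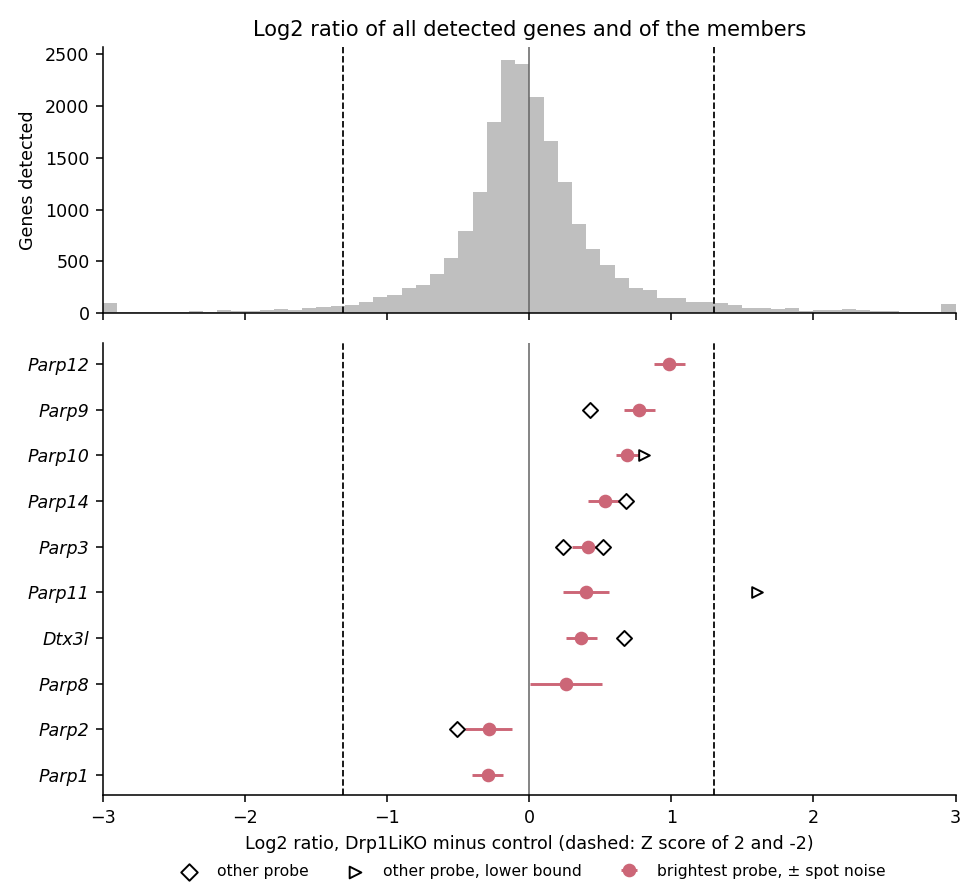
Log2 ratio (*Drp1*LiKO minus control) on the horizontal axis. The upper panel counts the 20165 detected genes per bin, with ratios beyond the axis collected in the end bins, and the lower panel shows the brightest probe of each of the 10 genes as a filled circle with its spot noise, other probes as open diamonds and lower bounds as open triangles. The 8 higher and 2 lower genes all lie between the dashed lines at Z scores of 2 and -2, and a single triangle, of *Parp11*, lies beyond them.

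Among the nuclear PARPs of the DNA damage response, 1 of 3 was higher and 2 were lower. *Parp1* (NM_007415), the main enzyme of poly(ADP-ribose) synthesis at DNA breaks, had a signal of 718 on the control array and 665 on the *Drp1*LiKO array, at chr1:182530341-182530639 of mm9. Its log2 ratio was -0.29 ± 0.109, or 1.22-fold higher in control, and 22.8% of detected genes had a lower ratio. *Parp2* (NM_009632), its close relative in break repair, was measured by 2 probes, with signals of 164 on the control array and 152 on the *Drp1*LiKO array at the brightest and 172 and 137 at the other. Their log2 ratios were -0.29 ± 0.166 and -0.51 ± 0.211, so both probes were lower in *Drp1*LiKO cells. These 3 probes, the only ones on both arrays with a lower signal in *Drp1*LiKO cells, each cross an intron, and their sequences are shown in lower case, 5′ to 3′, with the mm9 region on the plus strand from first to last base.
Parp1, chr1:182530341-182530639: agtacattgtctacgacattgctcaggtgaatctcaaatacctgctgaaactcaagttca
Parp2, chr14:51439134-51439365: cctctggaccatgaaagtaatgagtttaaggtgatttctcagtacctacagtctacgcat
Parp2, chr14:51435922-51436654: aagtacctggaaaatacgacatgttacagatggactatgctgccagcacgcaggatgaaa

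*Parp3* (NM_145619), which acts in the joining of double-strand breaks, was the exception in this set. Its brightest probe, at chr9:106373597-106373656, had a signal of 973 on the control array and 1467 on the *Drp1*LiKO array, a log2 ratio of 0.41 ± 0.107 (1.33-fold). The other probes had signals of 428 and 697 (log2 ratio 0.52 ± 0.109) and of 64.3 and 86.1 (0.24 ± 0.254). All 3 *Parp3* probes were thus higher in *Drp1*LiKO cells, the dimmest by less than its noise.

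*Parp14*, *Dtx3l* and *Parp9* are neighbors on chromosome 16, and their probes lay within 140 kb. *Dtx3l* and *Parp9* are transcribed from opposite strands. All 3 genes were higher in *Drp1*LiKO cells, against 44.5% of detected genes, with a median log2 ratio of 0.53. *Parp9* (NM_030253), a macrodomain protein of interferon responses, had a signal of 817 on the control array and 1587 on the *Drp1*LiKO array at chr16:35972577-35972636. Its log2 ratio was 0.77 ± 0.107 (1.71-fold, Z score 1.20), and 92.6% of detected genes had a lower one. A dimmer *Parp9* probe had signals of 70.1 and 107.03, a log2 ratio of 0.43 ± 0.254. Both measured probes of *Parp9* were therefore higher, and its remaining 2 probes were not well above background on either array.

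*Dtx3l* (NM_001013371), the partner of *Parp9*, had a signal of 1085 on the control array and 1587 on the *Drp1*LiKO array at chr16:35926655-35926714, a log2 ratio of 0.37 ± 0.107 (1.29-fold). A dim probe named *Dtx3l* (AK090152) had signals of 31.1 and 56.0, a log2 ratio of 0.67 ± 0.296. *Parp14* (NM_001039530), a macrodomain enzyme first known as a coactivator of STAT6, had a signal of 1402 on the control array and 2298 on the *Drp1*LiKO array at chr16:35832992-35833051. Its log2 ratio was 0.53 ± 0.115 (1.44-fold), and a dimmer probe with signals of 112 and 202 gave 0.68 ± 0.159. Every probe of the 3 genes that was above background on both arrays was higher in *Drp1*LiKO cells. The genes next to this group in the RefSeq table, *Hspbap1* and *Kpna1*, had signals of 2363 and 1047 in control and 2599 and 1025 in *Drp1*LiKO cells, log2 ratios of -0.04 and -0.21. Another probe of *Kpna1*, however, had signals of 124 and 285, a log2 ratio of 1.01.

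Among the other mono-ADP-ribosyltransferases, 4 of 4 were higher in *Drp1*LiKO cells, against 44.5% of detected genes, with log2 ratios from 0.26 to 0.99. *Parp12* (NM_172893), a zinc finger protein of the antiviral response, had the largest ratio of the 10 genes by the brightest probe. *Parp9* exceeded it in the deposited normalized values (0.96 against 0.79). *Parp11* exceeded it by the median of its probes (1.00), which takes in the bound of a probe dim in control. The signal of *Parp12* was 396 on the control array and 890 on the *Drp1*LiKO array at chr6:39036828-39036887, a log2 ratio of 0.99 ± 0.107 (1.98-fold, Z score 1.52), above that of 94.6% of detected genes. Its other probe was not well above background on either array. *Parp10* (NM_001163576), an enzyme with ubiquitin-binding motifs, had the brightest probe of the family. The signal was 5531 on the control array and 10125 on the *Drp1*LiKO array at chr15:76063433-76063492, a log2 ratio of 0.69 ± 0.080 (1.61-fold).

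*Parp8* (NM_001081009), a little studied member, had a signal of 59.2 on the control array and 80.4 on the *Drp1*LiKO array at chr13:117643922-117643981. Its log2 ratio of 0.26 ± 0.254 was about the size of the spot noise, and its other 2 probes were not well above background. *Parp8* was thus the gene of the family with the least certain direction.

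*Parp11* (NM_181402), a nuclear enzyme that limits signaling of the type I interferon receptor, gave different sizes by its 2 probes. The brightest, at chr6:127443888-127443947, had a signal of 105 on the control array and 157 on the *Drp1*LiKO array, a log2 ratio of 0.40 ± 0.159 (1.32-fold). The other probe, whose 60 bases join exon sequence across an intron, was not well above background in control, at 13.7, and had a signal of 62.8 in *Drp1*LiKO cells. Against the lowest signal well above background in control, 18.2, this was at least 3.04-fold higher (log2 ratio 1.60, Z score 2.47). It was the single probe of the 10 genes past the threshold, so 1 of 10 genes passed by any probe, against 3.96% of detected genes. That probe was kept only through the array on which it was bright, so the count is no support for a direction. The sequence of that probe is shown because its ratio departs from that of the other probe.
Parp11, mm9 chr6:127428092-127439947, plus strand: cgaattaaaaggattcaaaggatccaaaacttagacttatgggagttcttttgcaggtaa

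Promoter sequences of RefSeq (GRCm38.p6), reaching from 250 bases before to 50 bases after each gene start, were at hand for 7 of the 10 genes and were searched on both strands for a pair of motifs. The first, a pair of GAAA runs with 2 bases of any kind between them, is the core of the interferon-stimulated response element, and stands in 3.44% of 32851 promoters. The motif TTCNNNGAA, of the kind found in interferon gamma-responsive promoters, stands in 8.30%. Both were found in 1 of 8 promoters of these genes, a promoter of *Parp11*, and 0.454% of all promoters hold both. The first lies on the minus strand and the motifs overlap, and the bases from 44 to 29 before the start, which cover both, are in capitals in the last 120 bases before that start. Genes of the family with no promoter at hand were not searched, so nothing is known of these motifs there. A match describes the sequence and does not show binding.
Parp11 promoter, GRCm38.p6 chr6:127446720-127446839, plus strand: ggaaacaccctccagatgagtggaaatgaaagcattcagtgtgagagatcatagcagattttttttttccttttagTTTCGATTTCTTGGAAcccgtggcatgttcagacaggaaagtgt

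Over all 23 probes, 16 were well above background on both arrays, 2 on the *Drp1*LiKO array only and 5 on neither. Of the 16, 13 were brighter on the *Drp1*LiKO array, against 45.5% of all such probes. In each of the 5 genes with more than 1 such probe the probes had the same sign, which held for 63.2% of all such genes on the array. The probes measured on the *Drp1*LiKO array only, of *Parp10* and *Parp11*, passed the filter through the group in which they were bright and are no support for the direction.

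**Figure D2:**
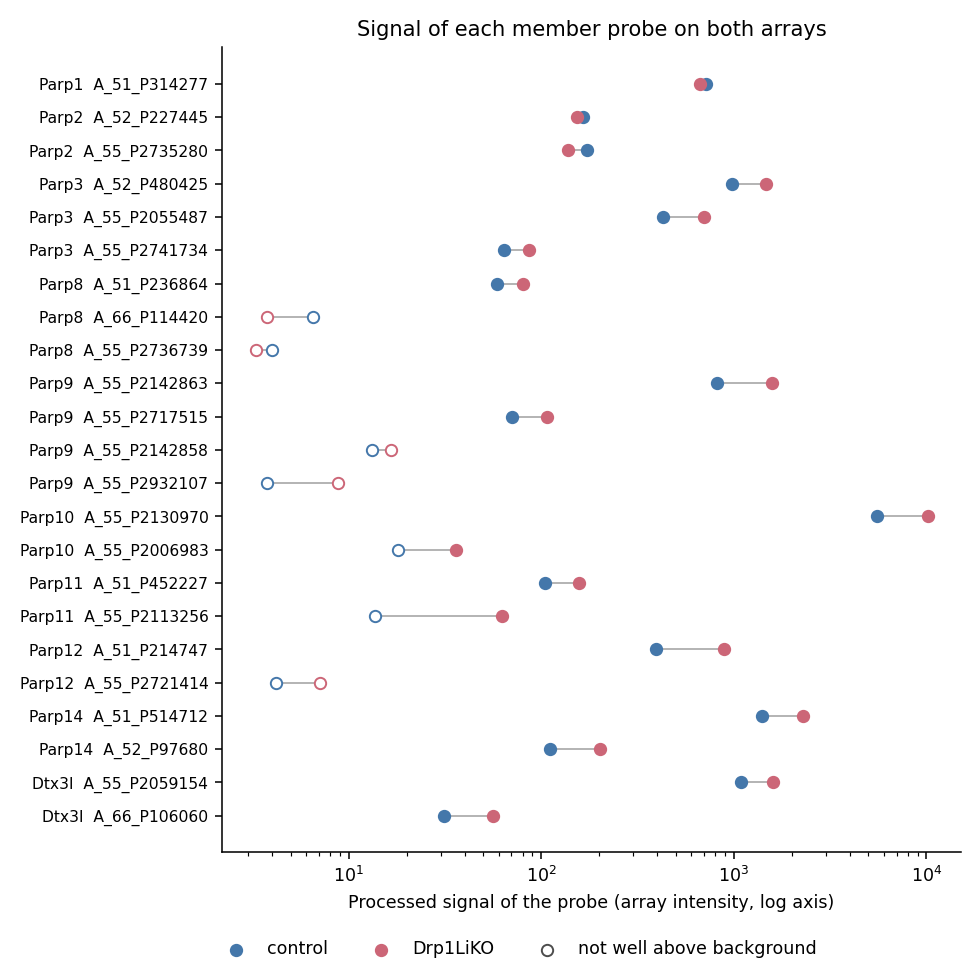
Processed signal (array intensity, log axis) of each of the 23 probes on the control array (blue) and the *Drp1*LiKO array (red), with open circles for signals not well above background. The red point lies to the right of the blue one in 13 of the 16 probes with both circles filled, and the 3 exceptions are the probe of *Parp1* and both probes of *Parp2*.

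Of the 10 genes, 6 are known to be induced by interferon (*Parp9*, *Parp10*, *Parp11*, *Parp12*, *Parp14* and *Dtx3l*). All 6 were higher in *Drp1*LiKO cells, against 44.5% of detected genes, with a median log2 ratio of 0.61 and a range from 0.37 to 0.99. The other 4 had a median of -0.01 and a range from -0.29 to 0.41, which overlaps that of the 6. Of 20 classical interferon-induced genes, 16 were above background on both arrays, and of these 15 were higher, 10 passed the threshold and the median log2 ratio was 2.80. The other 4, *Oas2*, *Oas3*, *Mx1* and *Ifi44*, were measured on the *Drp1*LiKO array only. The leading ratios were 5.36 for *Rsad2*, 4.37 for *Oasl2*, 4.20 for *Oas1a*, 4.19 for *Ifit3* and 3.53 for *Ifit1*. The ratio of *Parp12* was thus well below those of the leading genes of that list. It was close to or above those of the genes measured on both arrays that did not pass the threshold. These were *Ifih1* (1.04), *Ddx58* (0.99), *Herc6* (0.80), *Gbp2* (0.53), *Eif2ak2* (0.25) and *Ifit2* (-0.33). Among 14 genes of interferon signaling above background on both arrays, 9 were higher, 3 passed the threshold and the median was 0.25. *Stat2*, which carries the interferon signal to the nucleus, had a signal of 1230 on the control array and 3565 on the *Drp1*LiKO array (log2 ratio 1.35). *Usp18*, a brake on interferon signaling, had a log2 ratio of 2.41 and *Irf7*, which drives interferon transcription, 1.97. *Ifnb1*, which encodes interferon beta, was not well above background in control and had a log2 ratio of at least 2.17.

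Lists of other genes of ADP-ribose chemistry had median log2 ratios from -0.09 to 0.46. Of 7 other PARP superfamily genes, 6 were higher, none passed the threshold by the brightest probe and the median log2 ratio was 0.23. The ratios were 0.72 for *Parp16*, 0.55 for *Tiparp*, 0.54 for *Parp6*, 0.23 for *Zc3hav1*, 0.10 for *Tnks2*, 0.07 for *Parp4* and -0.00 for *Tnks*. All 4 other deltex ubiquitin ligase genes were higher, none past the threshold, with a median of 0.46. Of 7 genes of ADP-ribose hydrolases, which remove the modification, 3 were higher and 4 lower, none past the threshold, with a median of -0.09. Genes whose products repair single-strand breaks with PARP1 were split 5 to 5, none past the threshold, with a median of -0.03. Of 13 detected genes of NAD synthesis and use, 8 were higher and 5 lower, with a median of 0.04. By the brightest probe, a single gene of these lists passed the threshold, *Bst1*, whose product splits NAD+ at the cell surface, with a signal of 159 on the control array and 20.2 on the *Drp1*LiKO array (log2 ratio -3.16).

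**Figure D3:**
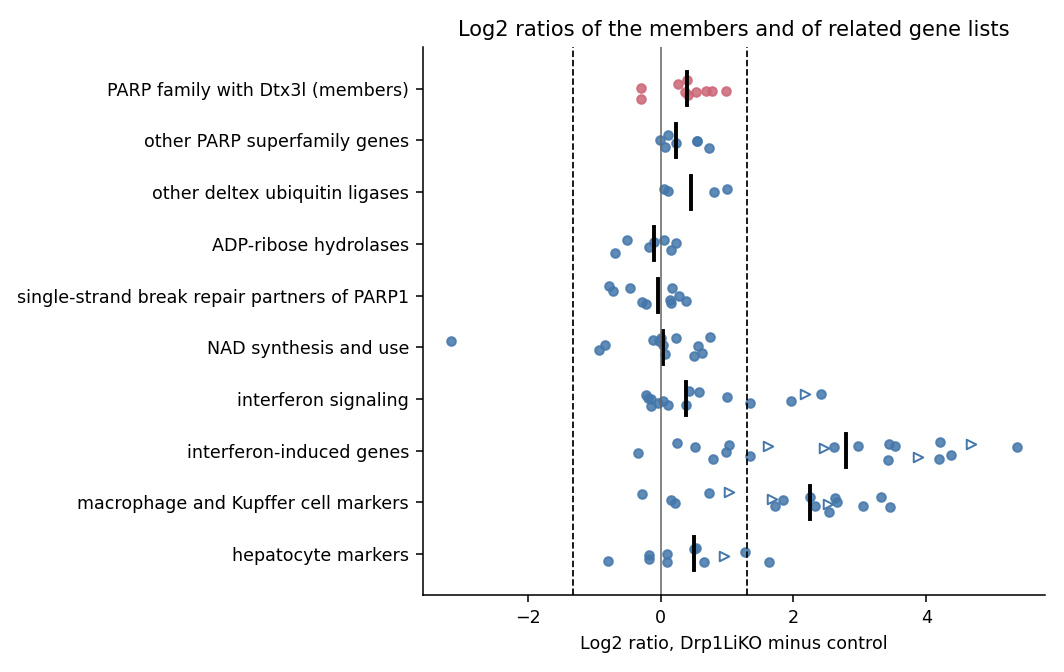
Log2 ratio (*Drp1*LiKO minus control) of each detected gene of the family and of related lists by the brightest probe, with bars for list medians, open triangles for bounds and dashed lines at Z scores of 2 and -2. The PARP family has a median of 0.40, interferon-induced genes have 2.80 and macrophage and Kupffer cell markers have 2.25, bounds included.

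Markers of some other liver cells were also higher in *Drp1*LiKO cells. Of 20 macrophage and Kupffer cell markers, 17 were detected and 14 were above background on both arrays. Of these 14, 13 were higher, 10 passed the threshold and the median log2 ratio was 2.28. The summed signal of all 17 detected was 16398 on the control array and 35347 on the *Drp1*LiKO array. By the mean over both arrays, the brightest of them were *Cd14*, with 6407 on the control array and 8419 on the *Drp1*LiKO array, and *Cd68*, with 2346 and 9593. *Itgam*, with 4132 and 3869, was the marker with a lower ratio (-0.28). Log2 ratios of those above background on both arrays reached 3.45 for *Marco*, 3.32 for *Aif1*, 3.05 for *Cd5l*, 2.65 for *Adgre1* and 2.63 for *C1qa*. The Kupffer cell marker *Clec4f* was not well above background in control (13.7) and had a signal of 119 in *Drp1*LiKO cells, and *Timd4*, *Cd163* and *Cx3cr1* were not well above background on either array. All 8 endothelial markers above background on both arrays were higher, 4 past the threshold, and all 11 detected had summed signals of 4613 and 9682. All 5 such stellate cell markers were higher too, 2 past the threshold. The summed signals of the 8 detected stellate cell markers, 21954 and 30135, were mostly *Acta2*, with 21437 and 24640 (log2 ratio 0.02). Of the further markers measured on the *Drp1*LiKO array only, 2 endothelial (*Lyve1* and *Tie1*) and 2 stellate (*Col3a1* and *Pdgfrb*) passed the threshold as bounds. Log2 ratios were 2.47 for *Kdr*, 2.18 for *Clec4g*, 1.93 for *Cdh5* and 1.66 for *Eng* among the endothelial markers. Among the stellate cell markers they were 4.06 for *Dcn* and 2.93 for *Col1a2*. The other detected probe of *Col1a2* gave -0.18, and the highest of 3 *Acta2* probes gave 2.20, so these values depend on the probe. Both detected T and NK cell markers were lower (median -0.42), and of the cholangiocyte markers above background on both arrays *Krt19* (-0.40) and *Spp1* (-0.46) were lower and *Sox9* (0.58) was higher. The 11 detected hepatocyte markers summed to 624650 on the control array and 694313 on the *Drp1*LiKO array. Of the 10 above background on both arrays, 7 were higher and 3 lower, with a median log2 ratio of 0.30. The lower ones were *Cyp2e1* (-0.78), *Serpina1a* (-0.18) and *Apoa1* (-0.17), and *Arg1* of the urea cycle passed the threshold at 1.63. PARP genes are expressed in hepatocytes and in these other cells, and the part of the other cells in the PARP ratios was not tested. In bulk RNA, more cells of a type and more RNA per cell cannot be told apart.

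The direction of 9 of the 10 genes was the same under each of 9 other ways to process the values. *Parp8* was the exception, with -0.02 in the normalized values deposited by the authors. Not all of these ways could change a direction. The filters on dim probes and the floor left every ratio as reported, because each brightest probe was well above background on both arrays. Keeping outlier spots hardly changed the ratios, as no spot of the 10 genes was marked. Scaling to spike-in probes shifted all ratios alike. *Parp12* ranged from 0.79 to 1.03, *Parp9* from 0.60 to 0.96 and *Parp10* from 0.51 to 0.75. *Parp11* had the widest range, from 0.29 to 1.00, the latter as the median of its 2 probes. The highest values of *Parp10* and *Parp11* are such medians, and each takes in the bound of a probe dim in control. *Parp1* lay between -0.30 and -0.25 and *Parp2* between -0.52 and -0.24. The number of brighter genes was 7 in the deposited values, in which 42.9% of detected genes were brighter. *Parp12* passed a threshold of 2 where the Z score was taken among probes of similar signal (passed upward by 3.17% of detected genes), with normexp background correction (3.56%), with no filter on dim probes (3.66% of all genes) and with a robust Z score, as *Parp9* and *Parp10* then did too (8.54%).

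**Figure D4:**
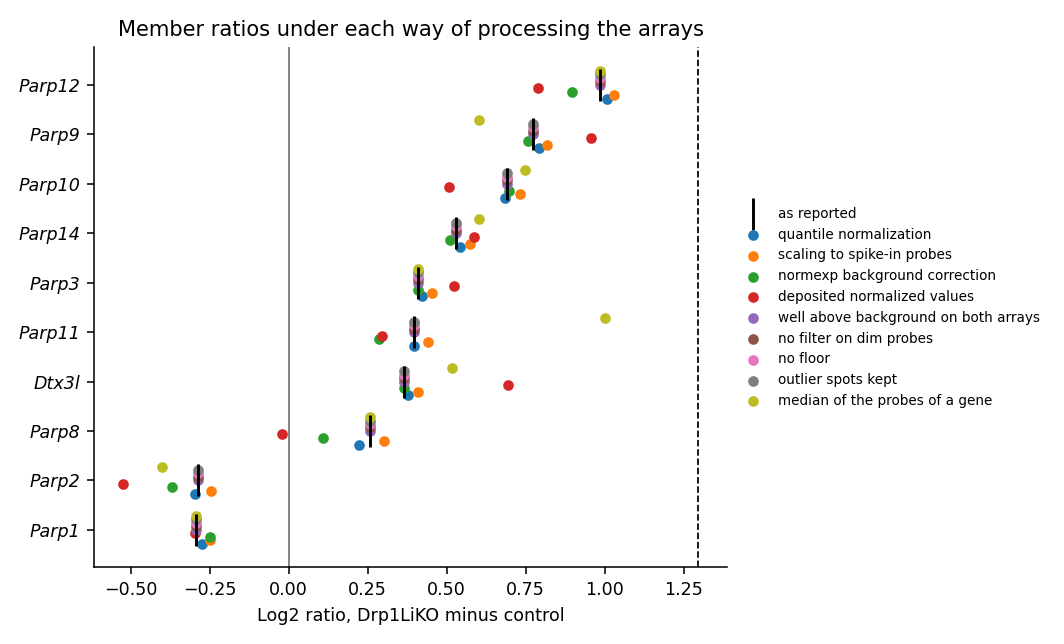
Log2 ratio (*Drp1*LiKO minus control) of each gene as reported (black bar) and under 9 other ways to process the values (colored points), with the dashed line at the log2 ratio of 1.30 where the reported Z score reaches 2. The points of *Parp12* lie between 0.79 and 1.03, those of *Parp1* and *Parp2* all lie below 0, and a single point of *Parp8* falls below 0, at -0.02.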

How the data were processed

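RNA of control and *Drp1*LiKO primary hepatocytes was read in the Cy3 channel, with 1 array for each genotype. The authors deposited Feature Extraction output, in which the processed signal of each spot is a linear intensity corrected for background and not normalized between arrays (version 10.7.1.1 per the file headers, 9.5.1.1 per the submitters' processing notes). A further table holds intensity values normalized by a method not given in the sources used here, and served only as an alternative because its *Drp1*LiKO values do not keep the order of the scanner signals.

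Control spots and spots marked as outliers (71 in control and 63 in *Drp1*LiKO cells) were left out, and log2 signals were averaged per probe. No spot of the 10 genes was marked or saturated, and each of their probes was printed as 1 spot. Each array's 75th percentile was subtracted. A probe was kept if either array showed it well above background, 27256 of 56600 being so in control and 29462 in *Drp1*LiKO cells. Dim signals were raised to the lowest signal well above background on that array (18.2 and 15.0), which turns their ratios into bounds. The Z score used the mean and the SD (0.65) of the log2 ratios of 30275 probes, and a gene was its brightest probe by mean log2 signal after scaling. Spot noise came from the 5 probes nearest in signal among 296 printed repeatedly, few of them dim. With 1 array per genotype there was no test. Depth cannot be stated for arrays.

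The 10 genes and all gene lists were chosen with earlier results of these data known. Named were the 10 genes, *Dnm1l*, up to 5 genes per list past the threshold with the largest ratios, and the brightest macrophage and hepatocyte markers. *Hspbap1* and *Kpna1* were named for their position, and *Ifnb1*, *Parp16*, *Tiparp*, *Clec4f*, *Itgam*, *Acta2*, *Krt19*, *Spp1*, *Sox9*, *Tnks* and the genes given as bounds after their values were seen. *Ifih1*, *Ddx58*, *Herc6*, *Gbp2*, *Eif2ak2*, *Ifit2*, *Cyp2e1*, *Apoa1*, *Parp6*, *Zc3hav1*, *Tnks2* and *Parp4* were likewise named after their values were seen. Lists of T and NK, B, neutrophil and cholangiocyte markers were checked too: 2 of 7, 1 of 4, 1 of 4 and 4 of 5 genes were detected, of which *Ly6g*, a neutrophil gene measured on the *Drp1*LiKO array only, alone passed the threshold. The B cell gene, *Ms4a1*, was near the lowest signals above background. The interferon signaling list leaves out 1 gene, which is not reported here. Coordinates of probes are those of the files, in mm9. Motif searches used RefSeq promoters of GRCm38.p6.

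The alternatives were quantile normalization, scaling to 7 spike-in probes, normexp background correction with an offset of 50, the deposited normalized values, outlier spots kept, dim probes unfiltered or required on both arrays, dim signals without the floor, a robust Z score, a Z score in 20 bins of signal, the median of a gene's probes, any probe of a gene, and 1.5-fold. The steps were tested on simulated data of this comparison over 18355 genes, in which 200 of 200 changed genes and 249 unchanged genes passed the threshold. These counts concern passing the threshold and do not show how well ratios short of it are measured. The tools were limma 3.58.1 in R 4.3.3, and numpy 2.4.6, matplotlib 3.10.9 and pandas 2.3.3 in Python 3.11.15.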

Additional observations from a re-analysis of the deposited data

How the results depend on the processing

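No gene of the family passed the Z score threshold upward as reported. With normexp background correction 1 did (*Parp12*), with no filter on dim probes 1 (*Parp12*) and with a robust Z score 3 (*Parp9*, *Parp10* and *Parp12*). Among probes of similar signal 1 did (*Parp12*), and at 1.5-fold 3. By any probe of a gene 1 did (*Parp11*), through a probe not well above background in control. None passed downward under any of these. The number of genes with a higher signal was 8 under each alternative except the deposited normalized values, where it was 7. The median log2 ratio of 0.40 became 0.52 with the deposited values and 0.56 with the median of a gene's probes, which takes in the bounds of *Parp10* and *Parp11*. *Dtx3l* had 0.69 and *Parp8* -0.02 in the deposited values. Of the values of single genes under alternatives, 80 moved by less than the spot noise and 10 by more. The 80 include values that could not move, as the filters on dim probes and the floor did not touch the brightest probes. They also include those with outlier spots kept, as no spot of these genes was marked. The 10 all came from the deposited normalized values and the median of a gene's probes. Over all genes, a robust Z score called 1722 higher and 1443 lower, and no filter 1355 higher and 597 lower, against 705 and 566. The cause of these shifts was not tested. Dim probes, such as the brightest of *Parp8* (59.2 in control and 80.4 in *Drp1*LiKO cells), give the least certain ratios. No paired analysis was possible because each genotype had 1 array, so that the groups shared fewer than 2 replicate numbers.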

Other observations

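The 2 probes of *Parp10* share 20 bases on chromosome 15 but had very different signals. The dim one (ENSMUST00000170226, from 76063393 to 76063452 of mm9) had 18.0 in control, not well above background, and 36.2 in *Drp1*LiKO cells, at least 1.75-fold higher (log2 ratio 0.81). *Tnks*, which encodes tankyrase, had a log2 ratio of -0.00 by its brightest of 3 probes, and of -1.63 by its lowest.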
